A study of Bos taurus with 6 samples.

Results

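INSL3 (insulin-like peptide 3) and RXFP2 (relaxin family peptide receptor 2) are a hormone and its receptor. Their entries were taken by gene symbol from the table of genes, which gave 2 of 47249 genes, and by gene identifier from the table of transcripts, which gave 4 of 108527 transcripts. Total RNA of testes from 3 immature calves (3 months old) and 3 mature bulls (3 years old), all untreated Wandong cattle (Bos taurus), had been depleted of ribosomal RNA and sequenced, with 1 library per animal. Levels are given in FPKM, the sequenced fragments of a gene scaled to the length of its transcripts and to the mapped fragments of the library. In such bulk tissue, fewer cells of a type and less RNA of a gene per cell cannot be told apart. Age is the only labelled difference between the groups, which are small and cross-sectional, so each p-value measures the spread between animals sampled once.

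INSL3 is a peptide hormone of the insulin and relaxin family and the main peptide product of the Leydig cells, the steroid-producing cells between the seminiferous tubules. It is made as a precursor that is cut into 2 chains joined by disulfide bonds. RXFP2 is a G protein-coupled receptor with a large extracellular part built of leucine-rich repeats, and binding of INSL3 raises cyclic AMP in the receiving cell. The pair is best known from the fetus, where INSL3 acts on RXFP2 in the gubernaculum to draw the testis down. In the adult testis, RXFP2 has been described in germ cells and Leydig cells.

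The library labelled calf 3 stood apart from the others, and its values put its label as calf testis in doubt, so the calf means over 3 libraries are means over the labelled group. All 8 markers of oligodendrocytes, astrocytes and neurons were highest in it, with a summed level of 13689 FPKM against 6.58 to 12.5 FPKM in the other libraries. All 7 markers of Sertoli cells, the supporting cells of the tubules, were lower in it than in calf 1 and calf 2, and 3 of them (FSHR, WT1 and GATA4) were listed at 0. Their sum was 15.0 FPKM there against 1795 in calf 1 and 1471 in calf 2. The Leydig cell genes STAR, HSD3B1 and LHCGR were at 0.328, 0.0352 and 0.0177 FPKM in calf 3, and CYP11A1, CYP17A1 and HSD17B3 were listed at 0. Most of the listed Sertoli and Leydig cell genes were therefore at or near 0 in this library. The exceptions were SOX9 (13.7 FPKM), FDX1 (13.3 FPKM), SCARB1 (6.36 FPKM) and FDXR (3.61 FPKM). Markers of other somatic cells were mixed in calf 3, with PDGFRA at 54.7 FPKM and ACTA2 at 7.81 FPKM, but CNN1 at 0.545 FPKM and TCF21 listed at 0. Every call was examined with and without this library. The part of its composition in each result was not tested.

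INSL3 (ENSBTAG00000025775) lay at chr7:5325748-5327331 in the positions of the deposited tables, a span of 1584 bp with a single transcript entry, INSL3-201. Calf 1 had 1349 FPKM, calf 2 had 1041 and calf 3 had 0.121, and the level was 2056 in bull 1, 1403 in bull 2 and 2262 in bull 3. The 3 bulls were above all calves, but the lowest bull exceeded the highest calf by only 54.4 FPKM, while calf 1 and calf 2 differed from each other by 308 FPKM. Calf 3 was far below every other library, with calf 1 and calf 2 on average 9910-fold above it. Among the 16372 entries whose symbol is protein coding in RefSeq, INSL3 ranked 30 in calf 1 and 46 in calf 2, and 6, 8 and 4 in bulls 1 to 3, so it was among the most abundant messenger RNAs of testis at both ages. In calf 3 it ranked 13734 of 14813 such entries above 0.

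The comparison of ages asks whether the hormone's RNA differs between immature and mature testes. The mean was 797 ± 707 FPKM (SD, n = 3) in calves and 1907 ± 448 FPKM (SD, n = 3) in bulls. The difference of INSL3, bull minus calf, was 4.01 ± 2.76 (SE) on the log2(FPKM + 1) scale, with a 95% confidence interval from -2.76 to 10.77, and did not pass the test (limma adjusted p = 0.261). An exact two-sided permutation test gave p = 0.1, the smallest that 3 against 3 animals allow. This wide interval rested on calf 3. Without it, the bull mean was 1.60 times the mean of calf 1 and calf 2 (1195 FPKM), and the log2 fold change was 0.66 ± 0.25 (SE, interval 0.05 to 1.26; limma adjusted p = 0.0503), which also missed the call. The exact p was then 0.2, the smallest that 3 against 2 animals allow. Expressed as a share of all protein-coding FPKM of the library, INSL3 made up 0.456% in calf 1 and 0.337% in calf 2, and 0.593%, 0.410% and 0.666% in bulls 1 to 3. On this scale bull 2 lay below calf 1, so the ages overlapped.

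**Figure D1:**
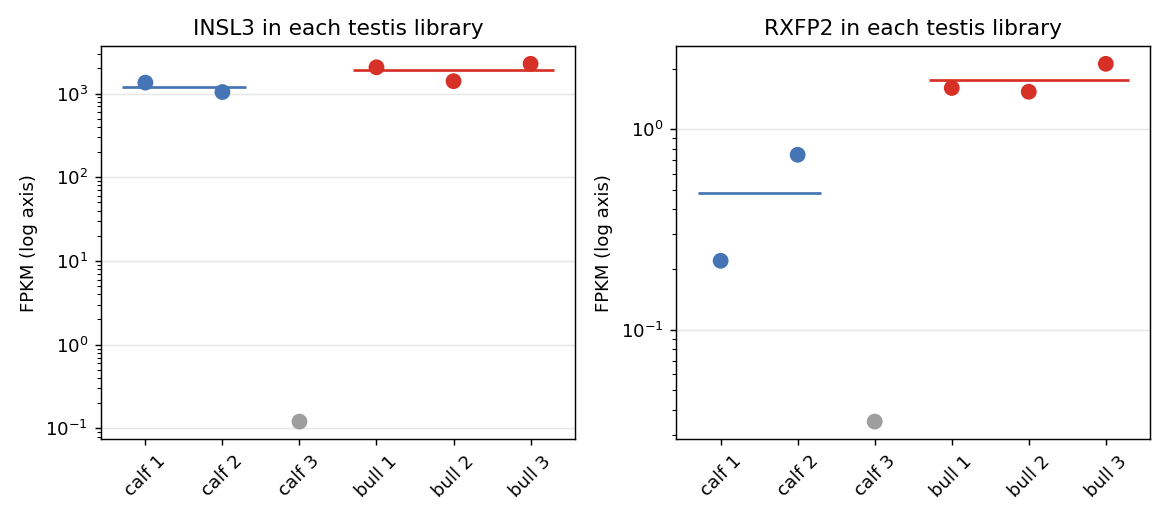
FPKM of INSL3 (left) and RXFP2 (right) in each library on logarithmic axes. Each point is 1 animal (blue, calf 1 and calf 2; grey, calf 3; red, bulls), the blue line is the mean of calf 1 and calf 2, and the red line is the mean of the bulls. INSL3 lay between 1041 and 2262 FPKM in every library except calf 3, and RXFP2 lay between 1.54 and 2.12 FPKM in bulls and below 1 in all calves.

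INSL3 was next set beside 9 genes of Leydig cells, to see whether it followed the steroid-producing machinery of the same cells. Of these genes, 8 were highest among the bulls in bull 3, and so was INSL3, but the spread between bulls differed from gene to gene. STAR, which moves cholesterol into the mitochondrion, was at 73.7, 30.05 and 266 FPKM in bulls 1 to 3. CYP17A1, the enzyme that leads from progestogens to androgens, was at 11.5, 9.13 and 86.4 FPKM. The highest bull was 8.84 times the lowest for STAR, 11.2 times for CYP11A1 (the enzyme that cuts the cholesterol side chain), 9.47 times for CYP17A1 and 5.97 times for the lipoprotein receptor SCARB1, against 1.61 times for INSL3. HSD3B1 (1.71 times), FDX1 (1.81 times) and FDXR (1.85 times) spread about as little as INSL3. HSD17B3, which makes testosterone, varied least, by 1.12 times. LHCGR, the receptor through which luteinizing hormone drives Leydig cells, was at 6.42, 4.02 and 0.0177 FPKM in calves 1 to 3 and 8.02, 4.29 and 18.9 FPKM in bulls 1 to 3, so the groups overlapped.

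Between ages, 2 of the 9 Leydig cell genes were higher in bulls and none lower, against 35.7% of all 18115 genes tested called higher and 9.61% called lower. Without calf 3 these counts were 2 higher and 1 lower, against 37.9% and 13.6%. HSD17B3 rose from 1.74 and 1.93 FPKM in calf 1 and calf 2 to between 17.3 and 19.5 in bulls (log2 fold change 3.28, and 2.78 without calf 3; limma adjusted p = 0.00118 and 7.87e-06). FDX1, the ferredoxin that passes electrons to mitochondrial steroid enzymes, rose by 1.12 (limma adjusted p = 0.0110), a call that was lost under each other scaling, with values from 0.44 to 0.97. FDXR, the reductase that feeds FDX1, fell by 1.04 without calf 3 (limma adjusted p = 0.00809). The median log2 fold change of the list was 1.36 and 0.68 without calf 3, against 0.43 over all genes tested in either set of libraries. LHCGR (1.55, limma adjusted p = 0.176, and 0.69, adjusted p = 0.285, without calf 3), STAR (3.37, 0.0728 and 2.06, 0.0642) and CYP17A1 (1.36, 0.488 and -0.21, 0.855) did not pass the test.

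The difference between INSL3 and the mean of the Leydig cell list was taken within each library on the log2(FPKM + 1) scale. It was 6.92 in calf 1, 6.35 in calf 2 and -0.88 in calf 3, and 7.16, 7.02 and 5.996 in bulls 1 to 3. Bull 3 was below calf 1 and calf 2, and the ages overlapped. The difference between ages was 2.59 (exact permutation p = 0.5) and 0.09 without calf 3 (exact permutation p = 1).

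**Figure D2:**
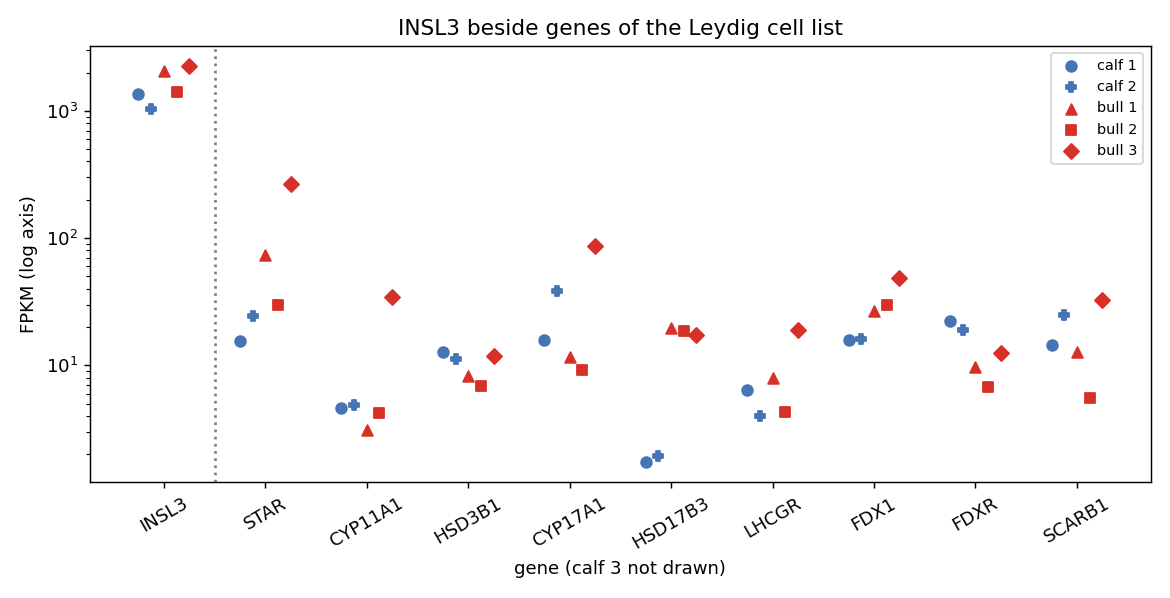
FPKM of INSL3 and of the 9 genes of the Leydig cell list on a logarithmic axis, 1 marker per library for calf 1, calf 2 and bulls 1 to 3. Calf 3, where 3 of the 9 genes are listed at 0, is not drawn. The bulls spread by 1.61 times for INSL3 and by 8.84 times or more for STAR, CYP11A1 and CYP17A1, with bull 3 at the top.

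RXFP2 (ENSBTAG00000015132) lay at chr12:29212314-29310851, a span of 98538 bp. Calf 1 had 0.221 FPKM, calf 2 had 0.745 and calf 3 had 0.0349, and the level was 1.60 in bull 1, 1.54 in bull 2 and 2.12 in bull 3. The receptor was thus weakly expressed at both ages, and the bulls lay above the calves without overlap. The lowest bull was 2.06 times the highest calf, and calf 2 was 3.37 times calf 1. Among the protein-coding entries, RXFP2 ranked 13916, 12421 and 14377 in calves 1 to 3 and 11362, 11568 and 10965 in bulls 1 to 3. INSL3 exceeded its receptor in FPKM by 6109-fold in calf 1, 1397-fold in calf 2 and 3.46-fold in calf 3, and by 1283-fold, 914-fold and 1069-fold in bulls 1 to 3.

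The mean of RXFP2 was 0.334 ± 0.368 FPKM (SD, n = 3) in calves and 1.75 ± 0.317 FPKM (SD, n = 3) in bulls, a ratio of 5.25, or 3.63 against calf 1 and calf 2 alone. RXFP2 rose in bulls by 1.07 ± 0.22 (SE) on the log2(FPKM + 1) scale, with an interval from 0.54 to 1.61 (limma adjusted p = 0.00696), which met both thresholds of a call (0.05 for the adjusted p, and 1 for the size of the log2 fold change). Higher calls took in 35.7% of all genes tested, and all 3 bulls lay above all 3 calves in 46.1% of them (and above calf 1 and calf 2 in 53.5%), as was the case for both INSL3 and RXFP2. RXFP2 passed the filter on low values (1 FPKM or more in 3 or more libraries) only through the bulls, so it could not have been tested had the bulls been as low as the calves. Without calf 3 the log2 fold change was 0.91 ± 0.20 (SE, interval 0.42 to 1.40; limma adjusted p = 0.00635), which is under the fold of the call. The exact permutation p was 0.1, and 0.2 without calf 3. Without bull 3 the value was 0.98 (limma adjusted p = 0.0281), also under that fold. After quantile normalization it was 0.51 (limma adjusted p = 0.109), and 0.32 (limma adjusted p = 0.193) without calf 3, so the call on RXFP2 depends on the scaling of the libraries. For a gene of this level, the added 1 FPKM makes the fold change smaller than the ratio of FPKM.

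**Figure D3:**
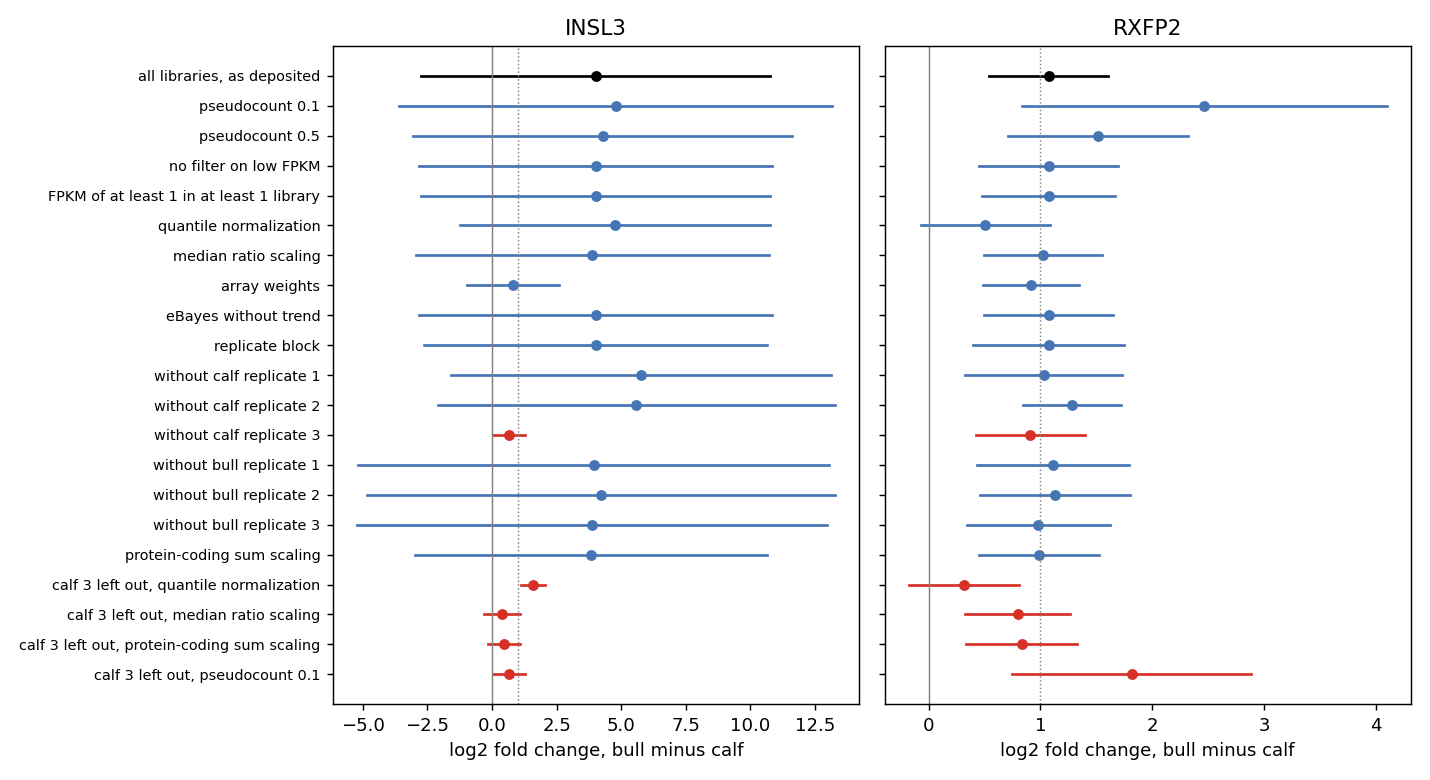
Log2 fold change (bull minus calf) of INSL3 (left) and RXFP2 (right) with its 95% confidence interval under each processing setting, on the log2(FPKM + 1) scale except where another pseudocount is named. Black is the value as reported, red marks settings without calf 3, blue marks all others, the solid line is 0 and the dotted line is 1. The interval of INSL3 runs from -2.76 to 10.77 with all libraries and from 0.05 to 1.26 without calf 3. The point of RXFP2 is above 0 in every setting but on both sides of 1. Its interval reaches below 0 after quantile normalization, both with all libraries (-0.07) and without calf 3 (-0.18).

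The FPKM of RXFP2 was the sum of 3 transcript entries. RXFP2-201, the annotated transcript (chr12:29212314-29274747), was at 0.183, 0.433 and 0.0349 FPKM in calves 1 to 3 and at 0.740, 0.824 and 0.972 in bulls 1 to 3. It made up 48.6 ± 4.41% (SD, n = 3) of the gene in bulls, 82.8% in calf 1, 58.1% in calf 2 and all of it in calf 3. TCONS_00060453, an assembled transcript (chr12:29252796-29310851), was at 0.0379 and 0.305 FPKM in calf 1 and calf 2, was listed at 0 in calf 3, and was at 0.529, 0.442 and 0.752 FPKM in bulls. TCONS_00060452, an assembled transcript with the same first position (chr12:29252796-29268593), was at 0.00705 FPKM in calf 2, listed at 0 in calf 1 and calf 3, and at 0.334, 0.269 and 0.391 FPKM in bulls, where it made up 19.0 ± 1.72% (SD, n = 3) of the gene. Each of the 3 entries was higher in every bull than in every calf, as was the gene of which they are parts. All 3 were below 1 FPKM in every library, and the share of all transcripts with such an order was not computed. The assembled entries held about as much of the bull level as the annotated one.

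None of the 3 RXFP2 transcripts reached the filter, so their tests come from a fit of all transcripts above 0, in which 8.37% were called higher in bulls. The log2 fold change was 0.61 ± 0.17 (SE) for RXFP2-201 (limma adjusted p = 0.0593), 0.50 ± 0.17 for TCONS_00060453 (limma adjusted p = 0.0934) and 0.41 ± 0.08 for TCONS_00060452 (limma adjusted p = 0.0223), and none met both criteria. With a pseudocount of 0.1, the value of TCONS_00060452 was 2.07 (limma adjusted p = 0.00629). Over all its alternatives its adjusted p ran up to 0.134, the value with the replicate block, and it was 0.107 without calf 1, 0.103 without calf 2 and 0.0797 after quantile normalization. A further assembled entry, XLOC_042535 (chr12:29281476-29311112), overlaps the higher-numbered end of RXFP2 and was at 0.364, 0.235 and 0.207 FPKM in bulls and at most 0.0879 in calves. The tables give no strand for either entry, and fragments of the shared stretch cannot be divided between them. At these levels an assembled structure rests on few fragments.

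**Figure D4:**
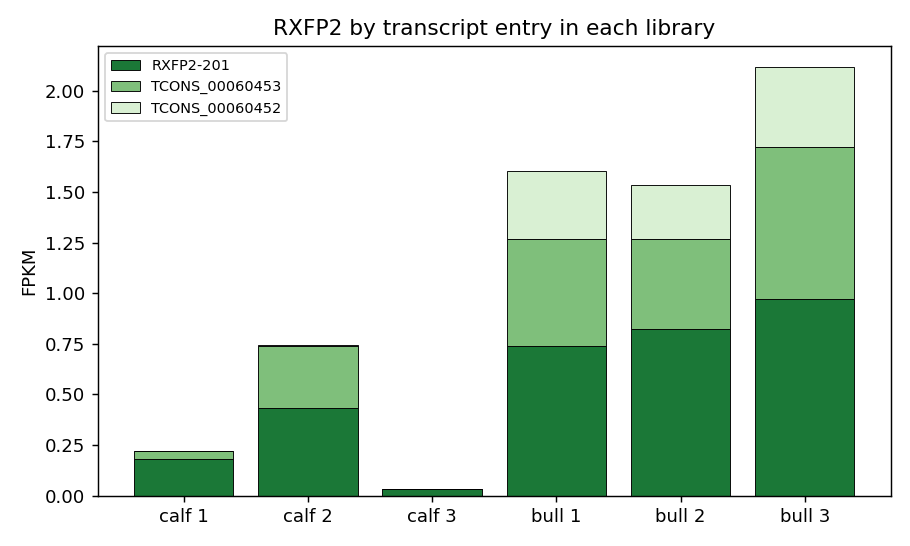
FPKM of the 3 transcript entries of RXFP2, stacked to the FPKM of the gene, in each library. The bars of the bulls reach 1.54 to 2.12 FPKM and hold all 3 entries, while TCONS_00060452 (lightest) is at most 0.00705 FPKM in calves.

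RXFP2 was also set beside markers of the germ cells, since mature testes hold many meiotic cells and spermatids. Of 24 markers of spermatocytes, round spermatids and elongating spermatids, 24 were higher in all bulls than in all calves, as were 46.1% of all genes tested. Their median bull mean was 88.1 FPKM against 0.478 FPKM in calf 1 and calf 2. Of the 23 tested, all were called higher, and 22 without calf 3, against 35.7% and 37.9% of all genes. Markers such as SPACA3, listed at 0 in all calves, passed the filter on low values only through the bulls, as RXFP2 did. The distance of RXFP2 to the mean of each list, taken within a library on the log2(FPKM + 1) scale, is a description with no test. To the round spermatid list it was -0.21, 0.25 and -0.25 in calves 1 to 3 and -4.12, -4.29 and -4.06 in bulls 1 to 3, a change of -4.09. To the elongating spermatid list it changed by -7.26, and to the spermatocyte list by -2.61. Against the mean of the spermatogonia list it was -2.71, -2.26 and -2.37 in calves and -1.71, -1.73 and -1.51 in bulls, a change of 0.80, and the change was 0.19 when the median of the list replaced its mean. By that median the ages overlapped, with -2.65, -1.90 and -1.80 in calves and -1.87, -1.99 and -1.93 in bulls, so a change against spermatogonial markers was seen with the mean alone. In every bull RXFP2 lay below the spermatocyte, round spermatid and elongating spermatid lists. In calves it lay below the spermatocyte list but close to the spermatid lists, with -0.15, 0.38 and -0.22 to the elongating list in calves 1 to 3. The median of the meiotic and later markers was 0.478 FPKM in calf 1 and calf 2. The changes against these lists therefore largely restate the rise of the markers in bulls. Of 7 spermatogonial markers tested, 2 rose (STRA8 and NANOS3) and 1 fell (ZBTB16), against 35.7% and 9.61% of all genes. Without calf 3, 2 rose and 2 fell (ZBTB16 and KIT), against 37.9% and 13.6%.

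The other relaxin family peptides are near relatives of INSL3. INSL6, a peptide described in germ cells, was at 0.188, 0.211 and 1.46 FPKM in calves 1 to 3 and at 87.5, 105 and 94.4 FPKM in bulls 1 to 3. It rose by 5.98 ± 0.32 (SE; limma adjusted p = 3.14e-05), and by 6.33 ± 0.12 without calf 3 (limma adjusted p = 5.52e-07). Among the calves only calf 3 reached 1 FPKM, so INSL6 passed the filter on low values through the bulls, as RXFP2 did. INSL6 could not have been tested had the bulls been as low as calf 1 and calf 2. INSL3 remained the more abundant peptide in every bull. INSL5 and RLN3 were at most 0.227 FPKM in any library and were not tested. RLN1, RLN2 and INSL4 were not analysed here.

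Among the receptors, RXFP1, the relaxin receptor and closest relative of RXFP2, was at 0.533, 0.387 and 4.35 FPKM in calves 1 to 3 and at 0.232, 0.387 and 0.613 FPKM in bulls 1 to 3. It was highest in calf 3, the reverse of RXFP2, and did not reach the filter. RXFP3, a receptor of RLN3, was at most 0.328 FPKM, and RXFP4 was not analysed here. Of the 6 further leucine-rich repeat receptors, 4 were tested. TSHR, the thyrotropin receptor, rose by 1.76 (limma adjusted p = 0.000156; 1.71 without calf 3), from at most 0.179 FPKM in calves to between 2.30 and 3.29 in bulls. Like RXFP2, TSHR passed the filter on low values only through the bulls, so it could not have been tested had they been as low as the calves. FSHR, the receptor of follicle-stimulating hormone on Sertoli cells, fell by 2.06 without calf 3 (limma adjusted p = 2.67e-05), while the value with all libraries was -0.33 (adjusted p = 0.860).

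**Figure D5:**
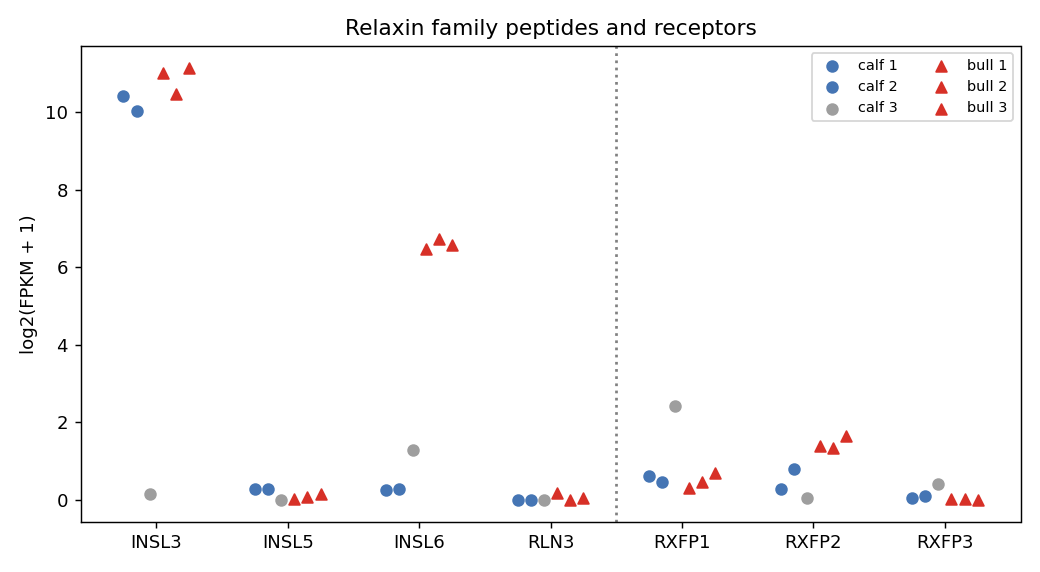
Levels of relaxin family peptides (left of the dotted line) and receptors (right) as log2(FPKM + 1), 1 point per library (blue circles, calf 1 and calf 2; grey circles, calf 3; red triangles, bulls). INSL3 is high in all libraries except calf 3, INSL6 is high only in the bulls (87.5 to 105 FPKM), and RXFP2 in bulls lies above RXFP1 and RXFP3.

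Of the genes that carry the signal of RXFP2 into the cell, none was called higher with all libraries. Of 15 G proteins, adenylyl cyclases and arrestins tested, none was higher and 6 were lower in bulls, against 35.7% and 9.61% of all genes. Without calf 3, 1 was higher and 6 lower, against 37.9% and 13.6%. GNAS, which encodes the G protein subunit that stimulates adenylyl cyclase, was at 320, 278 and 564 FPKM in calves 1 to 3 and between 54.7 and 59.6 FPKM in bulls (log2 fold change -2.66, limma adjusted p = 0.000571; -2.36 without calf 3). The symbol GNAS belongs to 2 entries, and the more abundant was used. The adenylyl cyclases ADCY5 (-1.44), ADCY6 (-1.19), ADCY7 (-1.64) and ADCY9 (-1.78) fell, with limma adjusted p from 0.000319 to 0.00409, and were at -1.26, -1.11, -1.37 and -1.86 without calf 3, all still called. ARRB1, which uncouples and internalizes such receptors, fell by 2.60 (limma adjusted p = 0.0165) and by 1.83 without calf 3 (limma adjusted p = 0.000139). GNAO1, an alternative G protein of RXFP2, rose by 2.03 in the fit without calf 3 and not with all libraries (limma adjusted p = 9.87e-05). It was at 83.0 FPKM in calf 3 and at most 6.57 elsewhere.

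Of 7 factors that answer cyclic AMP, 2 were higher and 1 lower, against 35.7% and 9.61% of all genes. Without calf 3, 1 was higher and none lower, against 37.9% and 13.6%. CREM, which drives genes of spermatids and is also a marker of round spermatids here, rose from at most 3.56 FPKM in calves to between 139 and 149 in bulls (log2 fold change 5.13, limma adjusted p = 4.27e-06; 5.08 without calf 3). ATF1 rose by 1.35 (limma adjusted p = 0.0202), and by 0.94 without calf 3, which is under the fold of the call. After quantile normalization ATF1 was at 0.68 (limma adjusted p = 0.206). CREBBP, a coactivator, fell by 1.001 (limma adjusted p = 0.00244) and was at -0.93 without calf 3. CREB1 was at -0.87 (limma adjusted p = 0.00348), under the fold of the call.

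Transcription factors known to act on the INSL3 promoter were lower in bulls or were not called. Of 8 tested, none was higher and 2 were lower, against 35.7% and 9.61% of all genes, and without calf 3, 5 were lower against 13.6%. NR5A1 (steroidogenic factor 1), the main activator of Leydig cell genes, was at 25.1 and 27.6 FPKM in calf 1 and calf 2, listed at 0 in calf 3, and at 10.2, 8.13 and 8.42 FPKM in bulls. Its log2 fold change was 0.12 (limma adjusted p = 0.945) with all libraries, and it fell by 1.47 without calf 3 (limma adjusted p = 0.000146). NR2F2, an orphan nuclear receptor of interstitial cells, fell by 1.94 (limma adjusted p = 0.000377; -2.02 without calf 3), and KLF6, a zinc finger factor, fell by 2.20 (limma adjusted p = 0.0145; -2.82 without calf 3). GATA4 fell by 1.98 (limma adjusted p = 0.000111) and JUN by 2.34 (limma adjusted p = 0.00723) in the fit without calf 3. NR4A1 was between 1.47 and 1.86 FPKM in all 6 libraries. NR5A1 and GATA4 are also expressed by Sertoli cells, and GATA4 is itself 1 of the 7 Sertoli cell markers used here. These markers were called lower in 0 of 7 cases with all libraries and in 7 of 7 without calf 3. Their summed levels were from 120 to 151 FPKM in bulls. The part of Sertoli cells in the values of NR5A1 and GATA4 was not tested.

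Proprotein convertases cut the precursors of peptide hormones, those of the relaxin family among them. Of 6 tested, 2 were higher and none lower, near the 35.7% of all genes called higher, and 3 were higher without calf 3, against 37.9%. PCSK4, the convertase of germ cells, rose from between 1.46 and 3.36 FPKM in calves to between 72.7 and 78.6 in bulls (log2 fold change 4.42, limma adjusted p = 4.29e-05; 4.15 without calf 3). PCSK5 rose by 1.66 (limma adjusted p = 0.00225), and by 1.46 without calf 3. PCSK6 was at 39.4 FPKM in calf 3 against at most 1.499 in calf 1 and calf 2, and rose by 2.29 in the fit without it (limma adjusted p = 8.63e-05). FURIN, present in most cells, was at 15.0, 13.1 and 7.999 FPKM in calves and 8.05, 7.46 and 9.62 FPKM in bulls and was not called. Over all pathway lists, 41 of 53 genes were tested, of which 6 were higher and 9 lower, against 35.7% and 9.61% of all genes. Without calf 3 these counts were 7 and 12, against 37.9% and 13.6%. After quantile normalization 5 were higher and 15 lower, and over all genes 4683 were higher and 3917 lower against 6474 and 1741 as deposited.

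The genes next to each member on the chromosome were examined as well. JAK3, a kinase of cytokine receptors (chr7:5306153-5323991), lies 1756 bp from INSL3 and was at 4.53, 5.82 and 0.925 FPKM in calves 1 to 3 and 3.17, 1.89 and 5.38 FPKM in bulls 1 to 3 (log2 fold change 0.03, limma adjusted p = 0.971). Like INSL3 it was lowest in calf 3, but its level was far below that of INSL3 in every other library. B3GNT3, a glycosyltransferase 17111 bp away on the other side, was below 1 FPKM in all libraries. Around RXFP2, FRY (215039 bp away) was at 22.0 FPKM in calf 3 against 2.43 to 4.99 FPKM elsewhere and was not called (-0.26, limma adjusted p = 0.787). B3GLCT, another glycosyltransferase (318564 bp away on the other side), fell by 2.49 (limma adjusted p = 0.000347) and by 2.50 without calf 3, from between 11.9 and 22.2 FPKM in calves to between 1.93 and 2.25 in bulls. RXFP2, called higher with all libraries, and B3GLCT thus moved in opposite directions.

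The genes with the most similar pattern over the 6 libraries are given as a description, since many genes share so coarse a pattern. Of 13752 candidate genes, 784 had a Pearson r over 0.9 with INSL3 on the log2(FPKM + 1) scale and 2848 had one with RXFP2. For INSL3 the highest r was that of SNAI1, EIF3K, ERLIN1, DNMBP and MCM5, from 0.997 to 0.999 over the 6 libraries, and from 0.69 to 0.88 over the 5 without calf 3. All 5 were lowest in calf 3 and differed little between the other libraries, with EIF3K, a subunit of a translation initiation factor, at 42.5 FPKM in calf 3 and 95.6 to 107 FPKM elsewhere. The genes nearest in level to INSL3, by root mean square difference, were HIST3H3 (1.62 on the log2 scale), GSTA1 (1.90), GSTM3 (2.26), ALDH1A1 (2.57) and HIST1H2BN (2.64). GSTA1, a glutathione transferase, was at 218, 487 and 0 FPKM in calves 1 to 3 and 450, 290 and 608 FPKM in bulls 1 to 3, and like INSL3 it was lowest among bulls in bull 2 and highest in bull 3. The steroid genes of the Leydig cell list were not among these 10.

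For RXFP2 the highest r was that of NHLRC1, SYT9, ABO, NOC2L and DYNC2LI1, from 0.996 to 0.997 over the 6 libraries and from 0.993 to 0.998 over the 5 without calf 3. These genes were picked for their match over the same libraries, so a shared order within the ages comes with the choice. Each had calf 3 lowest, calf 2 above calf 1, and bull 3 highest. The order of bull 1 and bull 2 was that of RXFP2 in NHLRC1, SYT9 and ABO, and the reverse in NOC2L and DYNC2LI1. NHLRC1, a ubiquitin ligase, was at 1.75, 2.91 and 1.53 FPKM in calves 1 to 3 and 4.88, 4.38 and 5.71 FPKM in bulls 1 to 3. The genes nearest in level were MESP2 (root mean square difference 0.145 on the log2 scale), PLG (0.151), TRIM29 (0.169), BTNL2 (0.170) and GGT6 (0.173). MESP2 was at 0.418, 0.742 and 0.169 FPKM in calves and 1.70, 1.93 and 2.02 FPKM in bulls, in the range of RXFP2 itself.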

How the data were processed

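Testis RNA of 3 calves and 3 bulls was depleted of ribosomal RNA by the authors, who mapped the reads with TopHat2 and assembled transcripts with StringTie. They deposited FPKM values of genes and transcripts for each library, and the tool that computed them is not given in the sources used here. The assembly is named as UMD3.1.1 in the Methods, but 99.7% of 16298 entries overlapped the locus of the same symbol in ARS-UCD2.0 of RefSeq, so positions are given as deposited. The tables hold no counts. At most 3.71% of low values shared the commonest ratio to calf 1, so counts could not be recovered and no counting interval was computed. FPKM summed to between 587066 and 1098715 per library.

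Values were analysed as log2(FPKM + 1) with limma 3.58.1 in R 4.3.3 (empirical Bayes trend, Benjamini-Hochberg over all features tested). Features below 1 FPKM in more than 3 of the 6 libraries were removed. The remaining 18115 genes and 23212 transcripts held both members and 1 of their 4 transcripts. Calls were made at an adjusted p under 0.05 where the log2 fold change was 1 or more in either direction. The procedure was tested on simulated data. Exact permutation tests used scipy 1.17.1. Groups came from the sample labels. Alternatives were other pseudocounts, filters and scalings, array weights, a replicate block, and leaving out each library. Scaling to the protein-coding sum, and each scaling without calf 3, were chosen after seeing the data. Where a symbol had several entries, the one with the highest mean was used (3 entries for CYP17A1).

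The genes named are INSL3 and RXFP2, the called and the closest members of lists of the pathway and of cell type markers, the neighbouring genes, and the 5 genes most like each member by Pearson r and by root mean square difference. The members and lists were chosen with earlier results of these data known. Sequences and circRNAs were not analysed here.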

Additional observations from a re-analysis of the deposited data

How the results depend on the processing

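The log2 fold change of INSL3 and of RXFP2 was above 0 under all 20 alternatives tried for each. INSL3 was called in 1 of them, quantile normalization without calf 3 (1.58, limma adjusted p = 0.000414). A pseudocount of 0.1 without calf 3 gave an adjusted p of 0.0493, under the fold of a call, and leaving out 1 library moved it between 0.66 and 5.77. The value of 0.66 is the one without calf 3, and array weights gave 0.81. Adjusted p for INSL3 ran from 0.000414 to 0.414. RXFP2 was called under 12 of 20. It was under the fold or missed the adjusted p with quantile normalization (0.51), array weights (0.92), protein-coding sum scaling (0.98), and, without calf 3, with quantile normalization (0.32), median ratio scaling (0.80) and protein-coding sum scaling (0.83), and leaving out 1 library gave 0.91 (without calf 3) to 1.29. Adjusted p for RXFP2 ran from 0.00258 to 0.193. With the replicate block, INSL3 was at 4.01 (limma adjusted p = 0.234) and RXFP2 at 1.07 (limma adjusted p = 0.0257), and no call on either changed. The calves and bulls share only numbers, and deviations of same-numbered animals correlated at 0.0246 to 0.0341.

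Quantile normalization shifted the median log2 fold change of all genes from 0.43 to -0.13, median ratio scaling to 0.31 and protein-coding sum scaling to 0.23. It raised genes called lower to 3917 (1218 to 2466 on leaving out 1 library, 2466 without calf 3), pathway genes called lower to 15 (6 to 12) and marker genes called lower from 5 to 11. Marker genes called lower were 3 with no filter, 17 with array weights, and 3 to 17 on leaving out 1 library, with 17 without calf 3 and 3 without any 1 of the bulls. The bull minus calf change of RXFP2 against spermatogonial markers was 2.14 with a pseudocount of 0.1 and 0.19 by the list's median, against round spermatid markers -5.03 and -4.62, and against elongating spermatid markers -8.07 with a pseudocount of 0.1. The causes were not tested. The tables hold no counts, so the fold of RXFP2, which is below 1 FPKM in all calves, has no counting interval.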

Other observations

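Lists of other testis cells that could contribute RNA were read in the same fit. The interstitial list held the genes of immature Leydig and mesenchymal cells. Of 4 tested, 2 were lower in bulls and none higher, and 3 were lower without calf 3, against 9.61% and 13.6% of all genes. NR2F2, already counted among the factors known to act on the INSL3 promoter, was among those lower in both fits. PDGFRA, a growth factor receptor of Leydig cell precursors, was at 54.7, 55.8 and 54.7 FPKM in calves 1 to 3 and between 12.5 and 19.0 FPKM in bulls. Its log2 fold change was -1.69 with all libraries (limma adjusted p = 0.000656) and -1.69 without calf 3 (limma adjusted p = 0.000356). Which cells held PDGFRA in calf 3, the library high in brain markers, was not tested. TCF21, a factor of interstitial cells, fell by 3.70 without calf 3 (limma adjusted p = 2.70e-05), where it was listed at 0. DLK1, a marker of immature Leydig cells, did not reach the filter and was at 22.2 and 13.0 FPKM in calf 1 and calf 2 and at most 0.540 FPKM in bulls. INSL3 stayed high in the bulls beside these low values.

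Counts of the next lists stand against 35.7% of all genes called higher and 9.61% called lower, and 37.9% and 13.6% without calf 3. Of 4 markers of peritubular myoid cells, the contractile cells around the tubules, 2 rose (ACTA2 by 1.80 and MYH11 by 1.99, limma adjusted p = 0.000398 and 0.00360), and without calf 3 DES fell by 1.302 (limma adjusted p = 0.00158). Of 4 endothelial markers, TIE1 fell by 1.12 (limma adjusted p = 0.0490), and none was called without calf 3. Of 3 macrophage markers tested, AIF1 rose by 2.80 (limma adjusted p = 0.000734) and CSF1R fell by 1.76 (limma adjusted p = 0.0401). Of 6 brain markers tested, none was called with all libraries, and 2 rose and 2 fell without calf 3, all at low levels in the 5 remaining libraries.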
